A study of Homo sapiens with 24 samples.

Results

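The 589 regions described here are the widest stretches of the histone mark H4K20me3 in the control cells of the head and neck carcinoma line HN-SCC-151. They were selected on the width of the peaks themselves: a peak of 50 kb or more in any of the 7 control libraries made a domain, and such peaks were merged where they overlapped, on chromosomes 1 to 22. Peaks of the control libraries of any width were merged as well, and 17247 of the regions so made touched none of these 589 domains. Domains and other regions together made 17836 regions in all. The domains ran from 50 kb to 734 kb, with a median of 75 kb and quartiles of 60 and 117 kb, and spanned 63.0 Mb together. Of the 589, 190 measured at least 100 kb, 52 at least 200 kb and 8 at least 500 kb. The other regions had a median width of 9 kb and reached 95 kb, since narrower peaks of different libraries can overlap into a wider region.

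H4K20me3 is histone H4 trimethylated on lysine 20, a mark of compact, silent heterochromatin that is best known from the DNA around centromeres, chromosome ends, repeats and clusters of zinc finger genes. It is laid down on the monomethylated or dimethylated lysine by the enzymes SUV420H1 (gene symbol KMT5B) and SUV420H2 (KMT5C), which are brought to chromatin by heterochromatin proteins that bind methylated lysine 9 of histone H3. Because each round of replication dilutes marked histones with unmarked ones, a domain lasts in dividing cells only if the mark is renewed. A-196 is a small molecule that inhibits both enzymes, whereas an siRNA lowers the messenger RNA of the enzyme it was designed against.

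HN-SCC-151 is a line without human papillomavirus, wild type by its labels, and every library came from cells treated for 6 days, with 500000 cells per CUT&RUN reaction, an assay in which an antibody guides a nuclease to cut out the marked chromatin for sequencing. In the inhibitor arm, 3 libraries of cells given A-196 at 2.5 µM stood against 3 of cells given its solvent DMSO. The siRNA arm set 4 libraries after siRNAs against SUV420H1 (siSUV420H1) against 4 after control siRNAs (siNC). The question was how much of each very wide domain was still called, and in how many pieces, once the enzyme was inhibited or depleted. All cells were of a single line, each arm used 1 IgG library as its background (from DMSO cells in the inhibitor arm, and with no treatment named in its label in the siRNA arm), and the loss of the SUV420H1 protein was not measured in these lists. The design text gives 3 dishes per condition while the siRNA groups hold 4 libraries each, so p-values speak only of the spread among these libraries, which may in part be technical. Arm, IgG library and any difference in handling between the arms cannot be told apart.

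Promoters from 3 of the domains are shown first because they carry the contrast that the results turn on: a domain that lost part of its coverage under both treatments (PAPPA, a metalloproteinase that frees insulin-like growth factor from its binding proteins), a domain that stayed whole (the zinc finger genes ZNF479 and ZNF716) and a domain that was all but gone (CXCL9 and CXCL10, interferon-induced chemokines that attract T cells, with the ADP-ribosyltransferase family gene ART3 between them). Each runs 5′ to 3′ from 250 bases before to 50 bases after the annotated start, from RefSeq on GRCh38.p14, on the strand of the gene. Capitals mark the dinucleotide CG, the site of DNA methylation, which reads the same on both strands. They lie at chr9:116153541-116153840 (plus strand) for PAPPA, chr7:57132387-57132686 (minus strand) for ZNF479, chr7:57449927-57450226 (plus strand) for ZNF716, chr4:76007460-76007759 (minus strand) for CXCL9, chr4:76010940-76011239 (plus strand) for ART3 and chr4:76023448-76023747 (minus strand) for CXCL10.
PAPPA: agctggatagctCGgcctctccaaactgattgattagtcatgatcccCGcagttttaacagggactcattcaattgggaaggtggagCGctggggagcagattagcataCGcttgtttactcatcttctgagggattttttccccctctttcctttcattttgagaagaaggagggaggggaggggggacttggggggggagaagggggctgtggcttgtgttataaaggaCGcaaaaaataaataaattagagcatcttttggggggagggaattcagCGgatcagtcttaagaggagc
ZNF479: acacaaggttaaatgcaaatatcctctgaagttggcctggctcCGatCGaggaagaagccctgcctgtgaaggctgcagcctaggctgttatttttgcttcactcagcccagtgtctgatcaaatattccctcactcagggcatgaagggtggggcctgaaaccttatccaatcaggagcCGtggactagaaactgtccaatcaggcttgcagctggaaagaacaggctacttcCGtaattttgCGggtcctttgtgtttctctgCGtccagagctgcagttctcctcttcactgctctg
ZNF716: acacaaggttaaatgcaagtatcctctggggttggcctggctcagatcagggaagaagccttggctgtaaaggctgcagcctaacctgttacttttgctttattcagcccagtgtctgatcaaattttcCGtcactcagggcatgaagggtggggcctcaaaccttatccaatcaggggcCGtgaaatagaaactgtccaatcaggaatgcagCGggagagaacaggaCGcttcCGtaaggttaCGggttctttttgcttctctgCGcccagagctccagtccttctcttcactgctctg
CXCL9: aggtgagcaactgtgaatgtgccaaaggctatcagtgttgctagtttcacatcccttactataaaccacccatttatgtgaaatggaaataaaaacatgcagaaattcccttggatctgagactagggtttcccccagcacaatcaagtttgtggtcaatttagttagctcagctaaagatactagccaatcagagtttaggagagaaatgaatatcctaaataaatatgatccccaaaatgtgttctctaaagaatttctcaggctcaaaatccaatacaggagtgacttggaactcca
ART3: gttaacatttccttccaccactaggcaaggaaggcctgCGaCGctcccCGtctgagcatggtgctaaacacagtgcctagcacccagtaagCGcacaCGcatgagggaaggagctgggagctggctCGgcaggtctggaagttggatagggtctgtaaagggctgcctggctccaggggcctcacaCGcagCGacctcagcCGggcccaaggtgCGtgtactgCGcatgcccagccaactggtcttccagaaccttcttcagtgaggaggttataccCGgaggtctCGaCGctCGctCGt
CXCL10: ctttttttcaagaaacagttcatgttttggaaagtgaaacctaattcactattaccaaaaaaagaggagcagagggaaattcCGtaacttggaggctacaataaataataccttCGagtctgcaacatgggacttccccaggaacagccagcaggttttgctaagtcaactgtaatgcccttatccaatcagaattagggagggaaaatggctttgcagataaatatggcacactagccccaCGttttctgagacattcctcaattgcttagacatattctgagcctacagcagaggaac

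The start of PAPPA lay under a peak in 3 of 3 DMSO and 4 of 4 siNC libraries and in 0 of 3 A-196 and 0 of 4 siSUV420H1 libraries. The starts of ART3 and CXCL10 gave the same counts, and that of CXCL9 differed from them in siNC alone, with 3 of 4 libraries. The starts of ZNF479 and ZNF716 lay under a peak in all 14 libraries. These 2 zinc finger promoters are close copies, the same at 263 of 300 positions (87.7%), against 20.7% to 31.3% for every other pair of the 6, so reads from one copy could be counted at the other. The CG count was 6 in PAPPA, 6 in ZNF479, 7 in ZNF716, 0 in CXCL9, 16 in ART3 and 3 in CXCL10, beside a median of 21 in the promoters of all autosomal coding genes with a sequence. All 6 lay below that median, those of the domain that stayed whole as well as those of the domains that did not.

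The deposited values were the start and end of each broad peak, without read counts, so the sequencing depth was unknown and weak signal may be present where none was called. Peaks on chromosomes 1 to 22 covered 141 to 149 Mb with DMSO, 76.1 to 103 Mb with A-196, 179 to 189 Mb with siNC and 114 to 123 Mb with siSUV420H1. The 3 A-196 libraries differed more among themselves than those of any other group, and A-196 replicate 3 held the widest coverage of the 3. In peak calls from many cells, fewer cells that carry the mark and less mark per cell cannot be told apart. The lists hold no expression, so the label of the line could not be checked by expression. Of its marker genes, 2 of 20 squamous epithelial genes (TP63 and EGFR) overlapped a domain, against 0 of 9 fibroblast, 0 of 5 endothelial, 0 of 8 leukocyte and 0 of 4 neuronal markers.

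In control cells the domains were nearly filled by peaks. The median domain was covered over 96.2%, 92.9% and 94.2% of its width in DMSO replicates 1 to 3, and over 78.4%, 78.9%, 78.9% and 76.2% in the siNC libraries. These control values follow in part from the way the domains were chosen. With A-196 the median was 36.8%, 30.1% and 53.0%, and with siSUV420H1 it was 50%, 49.1%, 49.02% and 47.7%. Every treated library lay below every control library of its arm. The group means were 94.4% ± 1.66 for DMSO and 39.99% ± 11.8 for A-196 (SD, n = 3), 54.4 percentage points lower, and 78.1% ± 1.32 with siNC and 48.9% ± 0.954 with siSUV420H1 (SD, n = 4), 29.2 percentage points lower. Peaks filled at least 90% of 352 to 429 domains per DMSO library, and of 23 to 78 per A-196 library. That count was 149 to 181 with siNC and 81 to 95 with siSUV420H1. Counted by bases, 86.7% to 89.2% of the 63.0 Mb was covered with DMSO, 38.4% to 59.6% with A-196, 75.1% to 76.1% with siNC and 52.1% to 53.8% with siSUV420H1. In the 17247 other regions the covered share of bases was 41.1% to 44.3%, 12.3% to 21.9%, 62.5% to 67.0% and 33.7% to 34.6% in the same order of groups.

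**Figure D1:**
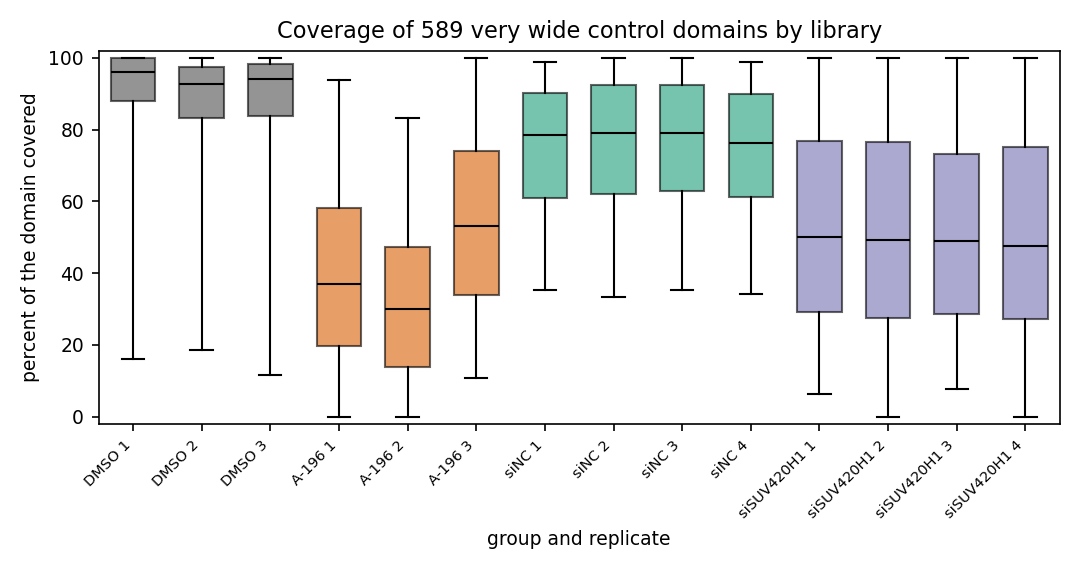
Percent of each of the 589 domains covered by peaks (vertical axis) in each of the 14 libraries (horizontal axis). Boxes span the quartiles, the line is the median and whiskers run from the 5th to the 95th percentile of domains. The medians of the A-196 and siSUV420H1 libraries lie between 30.1% and 53.0%, below those of all 7 control libraries.

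Domain by domain, coverage was called lower where every treated library lay below every control library. With A-196, 460 of the 589 domains (78.1%) were lower, beside 24.4% of all 17836 regions, and 21 (3.57%) were higher, beside 0.774%. With siSUV420H1, 418 domains (71.0%) were lower, beside 34.6% of all regions, and 36 (6.11%) were higher, beside 1.75%. Because the control libraries chose the domains, these counts are a description and nothing is read from them. The shares over all regions also include regions with a peak in siNC alone, which could not be lower with A-196. The median DMSO coverage of the 17247 other regions was 0%. With 3 libraries against 3 the exact permutation test cannot give a p below 0.1, and with 4 against 4 it cannot go below 0.0286, where the smallest adjusted p over all regions was 0.0786. On coverage divided by each library's relative covered length, the split was 51.1% lower and 17.3% higher with A-196, beside 16.7% and 3.69% of all regions, and it turned to 34.0% lower and 39.0% higher with siSUV420H1, beside 22.7% and 19.1%. On that scale the median domain differed by -29.9 percentage points with A-196 and by -2.10 with siSUV420H1.

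Domains can also be chosen in one arm and read in the other, where the contrast did not use the libraries that chose them. Those built from DMSO peaks alone numbered 486. Their median coverage was 73.99%, 74.2%, 73.6% and 73.6% in the siNC libraries and 46.8%, 44.6%, 45.4% and 43.5% in the siSUV420H1 libraries, with no overlap. Of the 486, 372 (76.5%) were lower with siSUV420H1, beside 34.6% of the 17835 regions tested that way, and 36 (7.41%) were higher, beside 1.78%. Domains built from siNC peaks alone numbered 361, and their median coverage was 97.5%, 96.2% and 96.4% with DMSO and 46.8%, 38.0% and 66.7% with A-196. Of these, 245 (67.9%) were lower with A-196, beside 24.5% of regions, and 21 (5.82%) were higher, beside 0.778%. After division by relative covered length the calls no longer went mainly one way. Of the DMSO-chosen domains 172 (35.4%) were then lower and 170 (35.0%) higher with siSUV420H1, beside 22.7% and 19.1% of regions. Of the siNC-chosen domains 120 (33.2%) were lower and 116 (32.1%) higher with A-196, beside 16.5% and 3.89%. Regions of 20 to 49 kb that were not members, 2143 in number, were lower in 67.4% of cases with A-196 and in 61.0% with siSUV420H1, far above the shares over all regions, most of which are narrow.

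Both arms together allow a test that can pass adjustment. Permuting labels within each arm (exact test, 1400 assignments), 439 domains (74.5%) were lower at an adjusted p under 0.05, beside 21.7% of all regions, and 9 (1.53%) were higher, beside 0.415%, again as a description. The smallest exact permutation p was 0.00143, with an adjusted p of 0.00945. On coverage divided by relative covered length 213 (36.2%) were lower, beside 10.8%, and 127 (21.6%) higher, beside 4.22%. With the replicate number as a block none passed (443 at an unadjusted exact permutation p under 0.05). With group medians in place of means no domain passed (442 at an unadjusted p under 0.05, smallest exact permutation p 0.00571, smallest adjusted p 0.134). By non-overlap 410 domains (69.6%) were lower in both arms, beside 15% of all regions, and 50 (8.49%) with A-196 alone, beside 9.38%. A further 8 (1.36%) were lower with siSUV420H1 alone, beside 19.6%, and 121 (20.5%) in neither arm, beside 56%. The difference between the arms' changes was tested itself, and by this exact permutation test 0 domains passed, beside 0% of all regions, with 40 at an unadjusted p under 0.05. Of those 40, the change with A-196 was the lower one in 34 and that with siSUV420H1 in 6, domains that did not fall included. After division by relative covered length 51 domains (8.66%) passed, beside 3.11% of all regions. In 49 of them (8.32%, beside 2.92%) the change with A-196 was the lower one, and in 2 (0.340%, beside 0.196%) that with siSUV420H1. Those 2 were a gene-free domain at chr1:182083001-182165000 and one at chr7:55601001-55750000 over the uncharacterised gene LOC101060341.

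Across the 589 domains the changes in the arms were related, with a Pearson correlation of 0.617 and a Spearman correlation of 0.609. This describes domains, which share libraries and a common width threshold, and the domains are not independent replicates. The change with A-196 was lower than that with siSUV420H1 in 468 of the 589, domains that did not fall included.

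**Figure D2:**
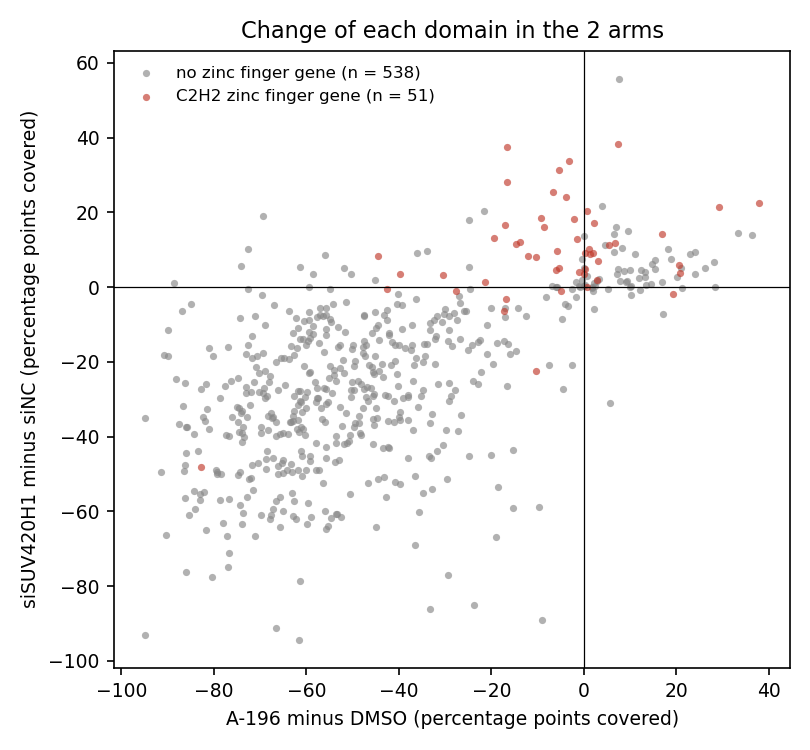
Change in percent covered of each domain with A-196 (horizontal axis, percentage points) against its change with siSUV420H1 (vertical axis, percentage points), 1 point per domain, each a difference of group means. The 51 domains that overlap a C2H2 zinc finger gene are red and the 538 others grey. Most grey points lie at the lower left, and most red points lie near or above the horizontal zero line.

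Treated domains were held in shorter pieces, and with A-196 those pieces were many in the widest ones. In the 52 domains of at least 200 kb, the mean number of separate peaks per domain was 2.71 ± 0.309 for DMSO and 8.58 ± 0.705 for A-196 (SD, n = 3), and 5.80 ± 0.127 with siNC and 6.15 ± 0.0929 with siSUV420H1 (SD, n = 4). Without overlap, 36 of these 52 domains were in more pieces with A-196 and 0 in fewer, beside 1.4% and 8.76% of all regions. With siSUV420H1, 8 were in more pieces and 11 in fewer, beside 0.891% and 17.7%. The longest piece left in such a domain had a median of 235 kb with DMSO, 51.2 kb with A-196, 105 kb with siNC and 65.9 kb with siSUV420H1. In the 290 domains under 75 kb, the peaks per domain numbered 1.37, 1.71, 1.77 and 1.57 in the same order, and the longest piece had a median of 49.3, 12, 33.8 and 17.8 kb. With A-196 the median covered share was 34.6% in the domains under 75 kb and 56.0% in those of at least 200 kb, and with siSUV420H1 it was 49.7% and 49.3%.

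Over all 589 domains the mean number of pieces was 1.52, 1.79 and 1.66 in the DMSO libraries and 2.86, 2.82 and 3.02 in the A-196 libraries, which did not overlap. It was 2.50, 2.52, 2.46 and 2.50 in the siNC libraries and 2.46, 2.33, 2.44 and 2.44 in the siSUV420H1 libraries, where the highest treated and the lowest control value were equal. The number of pieces was higher with A-196, without overlap, in 151 domains (25.6%), beside 1.4% of all regions, and lower in 15 (2.55%), beside 8.76%. With siSUV420H1 it was higher in 67 (11.4%), beside 0.891%, and lower in 89 (15.1%), beside 17.7%. Regions much narrower than 50 kb have little room for a second peak. Among peaks of at least 10 kb only, the count of domains in more pieces with A-196 was 54 (9.17%). A single uninterrupted peak was the state of 274 to 355 domains per DMSO library, 128 to 133 with A-196, 173 to 187 with siNC and 170 to 192 with siSUV420H1.

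**Figure D3:**
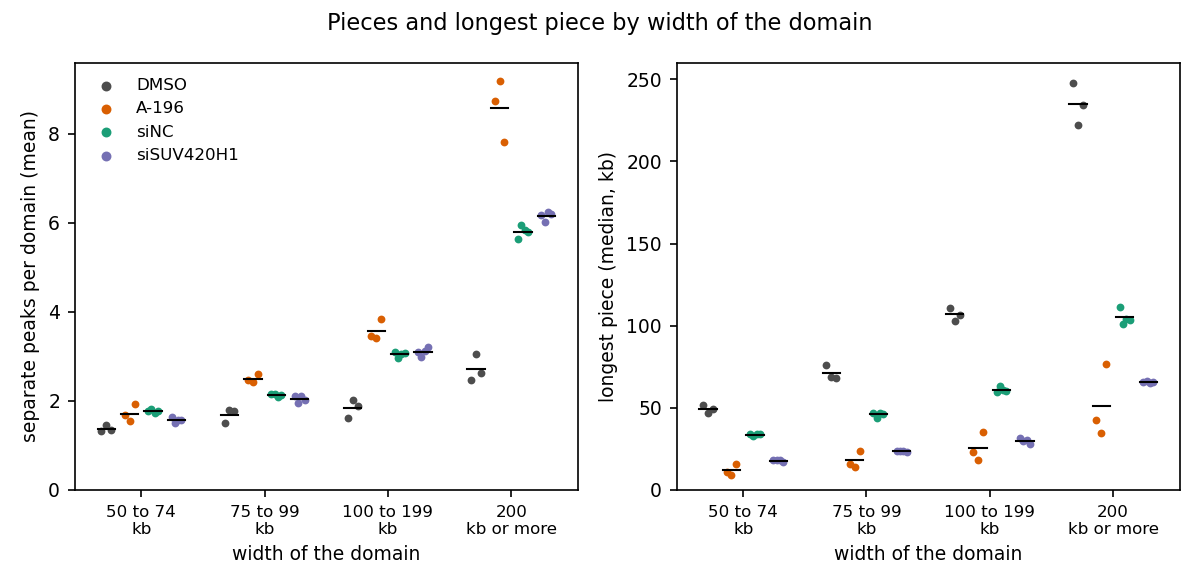
Mean number of separate peaks per domain (left) and median length of the longest piece in kb (right) for domains of 4 width classes, with 1 point per library and a bar at the group mean. In domains of at least 200 kb the A-196 libraries average 8.58 pieces against 2.71 with DMSO, while the siNC and siSUV420H1 libraries lie at 5.80 and 6.15.

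Coverage was lowest at the edges and higher inwards in every group. In the outer 10% of the width, mean coverage was 73.6% with DMSO, 27.7% with A-196, 54.0% with siNC and 34.5% with siSUV420H1. Next to the centre it was 88.9%, 49.2%, 81.6% and 57.8%. The edge of a merged domain is set by the control library that reached farthest, so a dip at the edge is in part built in. Treated coverage as a share of control coverage was 37.6% at the edge and 55.4% at the centre with A-196, and 63.9% and 70.8% with siSUV420H1. In the 10 kb outside each domain, mean coverage was 18.97%, 10.3%, 13.3% and 11.7% in the order DMSO, A-196, siNC, siSUV420H1.

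**Figure D4:**
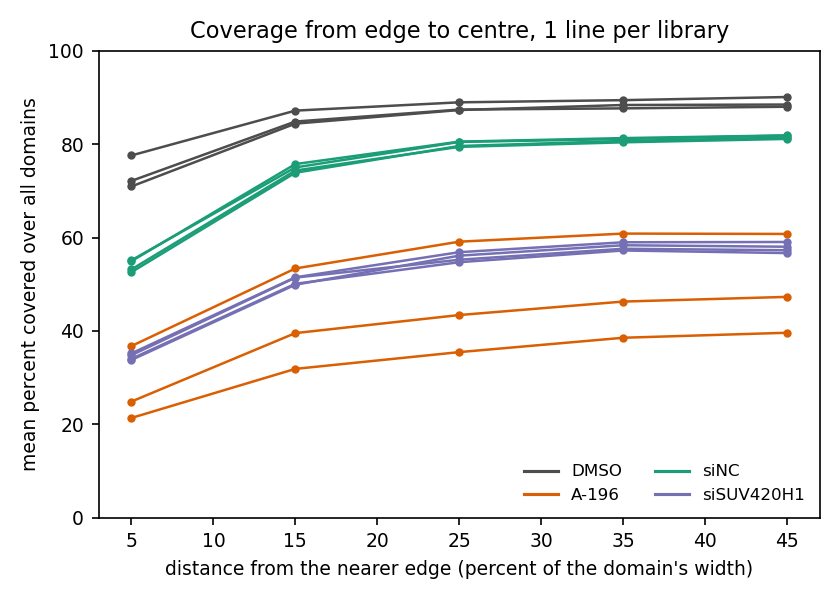
Mean percent covered over all domains (vertical axis) at increasing distance from the nearer edge, as a percent of the domain's width (horizontal axis), with 1 line per library. All 14 lines are lowest at the edge, and the 3 A-196 lines are spread from 39.6% to 60.8% at the centre while the siSUV420H1 lines lie between 56.7% and 59.1%.

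Of the bases covered in any siSUV420H1 library, 77.9% were covered in all 4, and of those covered in any A-196 library, 46.7% were covered in all 3, against 83.0% for siNC and 87.9% for DMSO. The bases covered in every A-196 library came to 19.4 Mb and those in every siSUV420H1 library to 29.1 Mb. They shared 16.0 Mb, which is 82.6% of the first and 55.1% of the second. A peak was present in all 14 libraries in 466 of the 589 domains, while only 8 domains were covered over at least 90% in all 14.

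Among the 10 widest domains, 8 were lower in both arms and 2 kept nearly full coverage. The widest (chr20:10817001-11551000, 734 kb) holds no coding gene. It was covered over 98.9%, 95.8% and 94.8% with DMSO, 40.3%, 39.2% and 57.6% with A-196, 90.2%, 91.4%, 88.7% and 88.1% with siNC and 49.6%, 49.2%, 47.4% and 47.7% with siSUV420H1, with both treated groups wholly below their controls. Its pieces numbered 4 to 8 with DMSO, 25 to 27 with A-196, 9 to 12 with siNC and 17 to 20 with siSUV420H1, and the longest measured 280 to 586 kb, 28 to 44 kb, 184 to 321 kb and 53 to 66 kb. The next 2 in width (chr10:89808001-90518000 and chr3:177257001-177959000) are also without a coding gene. The first of them averaged 98.5%, 55.1%, 73.9% and 31.0% with DMSO, A-196, siNC and siSUV420H1, and the second 97.8%, 74.9%, 81.1% and 55.2%.

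The domain that runs into PAPPA (chr9:115580001-116160000, 580 kb), whose promoter is printed above, was covered over 98.4%, 98.1% and 98.3% with DMSO and 51.6%, 51.4% and 72.8% with A-196. It was covered over 80.3%, 79.8%, 80.9% and 81.7% with siNC and 47.2%, 47.6%, 42.2% and 43.6% with siSUV420H1. The treated libraries lay below the controls in both arms, and the pieces numbered 3 to 4, 14 to 19, 7 to 10 and 10 to 13 in the 4 groups. The number of pieces thus rose without overlap with A-196 only, and the siNC and siSUV420H1 libraries met at 10. The domain over POU5F1B, a processed copy of the pluripotency factor POU5F1, and the start of the proto-oncogene MYC (chr8:127118001-127738000, 620 kb) averaged 99.3% ± 0.493, 65.9% ± 14.7, 86.2% ± 2.29 and 41.1% ± 2.72. It went from 1 to 3 pieces with DMSO to 17 to 27 with A-196. Domains that overlap the transcription factor genes KLF12 (chr13:73149001-73713000) and AHR, the receptor for dioxin-like ligands (chr7:17331001-17768000), averaged 98.9%, 69.7%, 62.3% and 31.8%, and 98.7%, 76.2%, 71.2% and 57.0%. On coverage divided by relative covered length the direction turned for the chromosome 3 domain and those of MYC, KLF12 and AHR with A-196, and for the chromosome 3 domain, AHR and a gene-free domain at chr6:113232001-113750000 with siSUV420H1.

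The domain over ZNF716 and ZNF479 (chr7:57041001-57614000, 573 kb) went the other way. It was covered over 97.4%, 91.8% and 97.0% with DMSO, 97.9%, 97.0% and 100% with A-196, 98.95%, 98.6%, 96.3% and 97.9% with siNC and 99.8%, 100%, 100% and 100% with siSUV420H1. All siSUV420H1 libraries lay above all siNC libraries, and the A-196 and DMSO libraries overlapped. A single peak spanned it in each siSUV420H1 library, where siNC had 3 to 7 and DMSO 3 to 5 pieces. Its gene-free neighbour on the same chromosome (chr7:56396001-56805000) averaged 97.5%, 97.7%, 99.5% and 100%. The 8 domains covered over at least 90% in all 14 libraries include these 2, and ZNF718 and ZNF595 lie in another one at chr4:24001-206000.

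**Figure D5:**
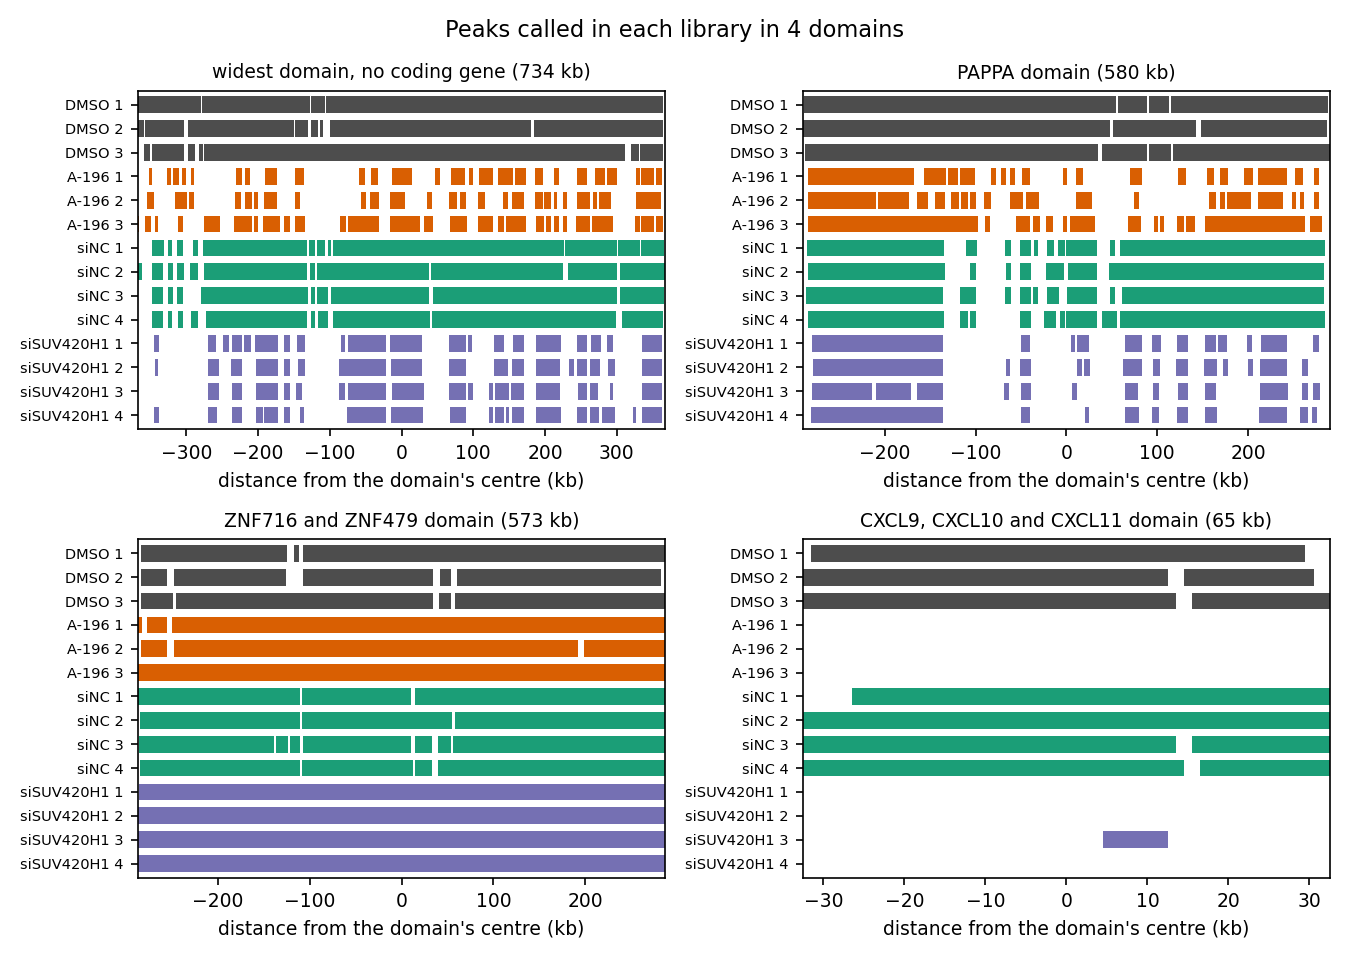
Peaks called in each library (1 row per library) along 4 domains, with distance from the centre of the domain in kb on the horizontal axis. In the widest domain and the PAPPA domain the treated rows are less filled than the control rows, in the ZNF716 and ZNF479 domain every row is nearly full, and in the CXCL9, CXCL10 and CXCL11 domain the treated rows hold 1 peak in all, in siSUV420H1 replicate 3.

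The largest fall with A-196 was that of the domain over ART3, CXCL9, CXCL10 and CXCL11 (chr4:76002001-76067000, 65 kb). Peaks covered 93.8%, 93.8% and 96.9% of it with DMSO, 0% in all 3 A-196 libraries, 90.8%, 100%, 96.9% and 96.9% with siNC, and 0% in all siSUV420H1 libraries but replicate 3, at 12.3%. Its neighbours in the ranking were chosen by DMSO peaks alone, so the siRNA arm did not choose them. The domain of the epithelial keratin gene KRT23, the hair keratin genes KRT40 and KRT39 and the keratin-associated KRTAP3-3 (chr17:40900001-40994000) was covered over 92.6%, 100% and 97.9% with DMSO and 0%, 5.32% and 10.6% with A-196. In the siRNA arm it was covered over 72.3%, 72.3%, 63.8% and 72.3% with siNC and 20.2%, 18.1%, 26.6% and 18.1% with siSUV420H1, without overlap (exact permutation p = 0.0286, n = 4 against 4, adjusted p = 0.0786 over all regions). KCNU1, a potassium channel of sperm, lies in a domain (chr8:36851001-36909000) that averaged 98.3% with DMSO, 3.45% with A-196, 54.3% with siNC and 19.4% with siSUV420H1. For F5, which encodes coagulation factor V (chr1:169493001-169544000), the values were 100%, 90.2% and 98.0% with DMSO and 15.7%, 0% and 0% with A-196. The F5 domain was low in siNC cells already, at 13.7%, 11.8%, 9.80% and 37.3%, and listed at 0% in all 4 siSUV420H1 libraries.

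No peak was called in any A-196 library in 8 of the 589 domains (1.36%), beside 61% of all regions, and in any siSUV420H1 library in 17 (2.89%), beside 50.5%. Most of those regions are narrow, and many had no DMSO peak to lose. The median DMSO coverage of the 17247 other regions was 0%. Counting peaks of at least 10 kb only, 74 domains (12.6%) had none with A-196 and 57 (9.68%) none with siSUV420H1. The count of 8 became 13 (2.21%) without A-196 replicate 1 and 20 (3.40%) without A-196 replicate 3. Only 1 domain was without a peak in all 7 treated libraries, the one over SEMA3A, an axon guidance factor (chr7:84430001-84499000). It was covered over 100%, 85.5% and 85.5% with DMSO and 52.2%, 59.4%, 82.6% and 71.0% with siNC. The domain within CAST, which encodes the calpain inhibitor calpastatin (chr5:96202001-96259000), had 43.9%, 59.6% and 45.6% with DMSO and 0% in each A-196 library. In the siRNA arm CAST kept most of its coverage, with 96.5%, 98.2%, 98.2% and 98.2% against 77.2%, 70.2%, 77.2% and 82.5%, and that fall became a difference of 15.3 percentage points in the other direction on coverage divided by relative covered length. ASZ1, a germ cell gene (chr7:117393001-117465000), averaged 97.2%, 30.6%, 39.9% and 0% in the order DMSO, A-196, siNC, siSUV420H1.

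With siSUV420H1 the largest falls besides the CXCL9 to CXCL11 domain lay in domains with few or no coding genes. A gene-free domain on chromosome 9 (chr9:108728001-108781000) averaged 94.3% ± 4.08 with siNC and was at 0% in all 4 siSUV420H1 libraries, and 71.1% ± 7.62 with DMSO and 9.43% ± 9.43 with A-196. Another (chr12:75817001-75902000) averaged 94.1% with siNC, 5% with siSUV420H1, 11.4% with DMSO and 2.35% with A-196. CSMD3, a very long gene for a protein with CUB and sushi domains, held a domain (chr8:113363001-113432000) at 92.0% with siNC, 5.80% with siSUV420H1, 35.7% with DMSO and 2.42% with A-196. These 3 had a wide peak in siNC alone, so their siRNA contrast used the libraries that chose them. A gene-free domain with a wide peak in DMSO alone (chr8:81344001-81410000) was covered over 93.9%, 97.0%, 93.9% and 95.5% with siNC and 0%, 7.58%, 7.58% and 0% with siSUV420H1. This domain was itself picked among the largest falls without overlap in this contrast. Its exact permutation p of 0.0286 (n = 4 against 4, adjusted p = 0.0786) was fixed by that pick, and nothing is read from it. It averaged 92.4% with DMSO and 25.8% with A-196.

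Domains that hold zinc finger genes had other values than the rest. C2H2 zinc finger genes encode DNA-binding proteins, many of which silence retrotransposons, and they lie in clusters, above all on chromosome 19. Of 587 such genes, 116 (19.8%) overlapped a domain, against 420 of 19126 autosomal coding genes (2.20%), and 78 of the 116 lay wholly inside one. The 51 domains with a zinc finger gene had library medians that averaged 94.5% ± 2.75 with DMSO, 84.8% ± 11.6 with A-196 (75.3% to 97.7%), 79.8% ± 2.14 with siNC and 92.0% ± 2.79 with siSUV420H1. The 538 other domains stood at 94.6% ± 1.43, 37.5% ± 11.9, 77.7% ± 1.18 and 45.2% ± 1.28. With A-196, 5 of the 51 were lower (those of ZFP69 with ZFP69B, ZNF474 with ZNF475, ZNF354A, ZNF16 and ZNF782) and 2 higher (ZNF680, and ZNF583 with ZNF667), against 455 lower and 19 higher of the 538. With siSUV420H1, 2 of the 51 were lower and 26 (51.0%) higher, against 416 lower and 10 higher of the 538. The count of 26 became 10 (19.6%) on bases covered in at least 4 of the 7 controls, while 28 of 42 (66.7%) were higher when domains were chosen in DMSO alone.

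On coverage divided by relative covered length the zinc finger domains were higher in 34 of 51 cases and lower in 1 with A-196, where the undivided median was lower, and higher in 50 and lower in 1 with siSUV420H1. Their divided medians were 127% with A-196 and 106% with siSUV420H1, beyond full coverage, so these calls are in part set by the division. The longest piece in these domains had a median of 56.3 kb with DMSO, 41.7 kb with A-196, 48.8 kb with siNC and 60.2 kb with siSUV420H1. In the 538 others it was 61.0, 16.3, 43.0 and 21.8 kb. The 31 zinc finger domains on chromosome 19 averaged 94.0%, 86.4%, 75.5% and 90.4%, with 0 lower with A-196 and 18 higher with siSUV420H1. The 20 on other chromosomes averaged 95.1%, 66.5%, 84.5% and 96.3%, with 5 lower with A-196 and 8 higher with siSUV420H1. In 205 domains with coding genes other than zinc fingers the values were 96.7%, 37.9%, 72.5% and 39.0%, and 188 were lower with A-196. Zinc finger genes are often close copies of their neighbours, so reads within a cluster may be shared among copies.

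Single zinc finger domains show the range. ZNF91, a repressor of SVA retrotransposons (chr19:23324001-23465000), was covered over 100%, 93.6% and 87.9% with DMSO and 93.6%, 90.1% and 100% with A-196, which overlap. With siNC it was covered over 61.0%, 61.7%, 63.8% and 58.9% and with siSUV420H1 over 88.7%, 85.1%, 78.0% and 75.2%, all higher. ZNF773, ZNF419 and ZNF772 (chr19:57461001-57525000) averaged 45.3% ± 1.80 with siNC and 83.6% ± 2.02 with siSUV420H1, the largest rise with siSUV420H1 of a domain with a coding gene, and ZNF254 (chr19:24070001-24160000) 53.9% ± 5.01 and 91.4% ± 6.11. The domain of ZNF814, ZNF587 and ZNF587B (chr19:57846001-57897000) averaged 36.8% ± 0.980 and 70.6% ± 1.60. These 3 domains had a wide peak in DMSO alone, so lower siNC coverage is in part built in. They were also picked among the largest rises without overlap in this contrast. Their exact permutation p of 0.0286 (n = 4 against 4, adjusted p = 0.0786) was fixed by that pick, and nothing is read from it. The 2 zinc finger domains lower with siSUV420H1 were that of ZNF474 and ZNF475 (chr5:122149001-122201000), at 94.2%, 11.5%, 83.2% and 35.1% and lower with A-196 too, and that of ZNF562 (chr19:9647001-9728000), at 60.2% against 82.7%.

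Higher coverage with A-196 was found in 21 domains (3.57%), of which 12 lay on chromosome 14 and 18 had a wide peak in siNC alone. Chromosome 14 holds 38 domains, and in 22 of them DMSO libraries covered under 10%, with medians of 0% with DMSO, 12.8% with A-196, 84.6% with siNC and 87.5% with siSUV420H1. A gene-free domain there (chr14:27163001-27310000) was at 0% in all 3 DMSO libraries and 15.6%, 14.3% and 38.8% with A-196. It was covered over 81.6%, 95.2%, 90.5% and 61.2% with siNC and 92.5%, 98.0%, 76.2% and 97.3% with siSUV420H1, which overlap. The olfactory receptor genes OR4K1, OR4K13, OR4K14 and OR4K15 lie in another (chr14:19915001-20041000), at 0%, 21.2%, 84.9% and 84.7%. Without chromosome 14, an alternative chosen after seeing the data, 9 of 551 domains (1.63%) were higher with A-196, and without A-196 replicate 2 the count over all chromosomes was 46 of 589 (7.81%). The part that the difference between the control states of the arms plays in these values was not tested.

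The largest rise with A-196 was that of ZNF680, a zinc finger gene (chr7:64427001-64500000), covered over 9.59%, 6.85% and 0% with DMSO and 47.9%, 30.1% and 52.1% with A-196. Its siNC libraries, at 47.9%, 79.5%, 100% and 76.7%, overlapped the siSUV420H1 libraries, at 94.5%, 100%, 100% and 100%. Only 2 domains were higher in both arms by non-overlap. The share of all regions was not computed for this count, so nothing is read from it. In the single arms 0.774% of all regions were higher with A-196 and 1.75% with siSUV420H1. Both domains are without a coding gene, as are 333 of the 589. That at chr7:58031001-58121000 averaged 41.5% ± 1.28, 65.6% ± 22.2, 90.6% ± 8.44 and 100% with DMSO, A-196, siNC and siSUV420H1. That on the acrocentric chromosome 21 (chr21:9525001-9828000) averaged 54.6% ± 9.25 for DMSO and 80.7% ± 15.2 for A-196 (SD, n = 3), and 94.6% ± 2.16 with siNC and 99.6% ± 0.165 with siSUV420H1 (SD, n = 4).

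Coding genes were sparse in the domains. They took 17.6% of the bases, against 27.2% in the other regions and 42.1% of the autosomes. A coding gene overlapped 256 domains and none overlapped 333, and 34 domains lay within a single gene. Gene-free domains had medians of 92.2%, 36.9%, 81.9% and 48.9% with DMSO, A-196, siNC and siSUV420H1, and 267 were lower with A-196 and 247 with siSUV420H1. Domains with a coding gene had 96.3%, 44.3%, 73.9% and 48.7%, with 193 and 171 lower. Genes of at least 500 kb, 18 of 303, overlapped 26 domains, of which 24 (92.3%) were lower with A-196 and 18 (69.2%) with siSUV420H1, beside 78.1% and 71.0% of all domains.

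The counts for the other gene lists stand beside 2.20% of all autosomal coding genes that overlapped a domain. They also stand beside 69.6% of all domains, and 15% of all regions, that were lower in both arms. Lists with few members say little beside these shares. Among the other gene lists, all matched by symbol, keratins and keratin-associated proteins had 10 of 149 members in 2 domains, both lower in both arms, at 97.8%, 10.3%, 70.5% and 23.9% on average. The second of these holds the hair keratin genes KRT31, KRT33A, KRT33B, KRT34 and KRT37 with KRTAP17-1 (chr17:41311001-41424000), at 98.8%, 15.3%, 70.8% and 26.99%. Class 3 semaphorins, secreted guidance factors, had 2 of 7 members, SEMA3A and SEMA3C, in 4 domains that were all lower in both arms, at 93.7%, 19.96%, 73.3% and 32.3%. Interferon-induced genes had 4 of 18 members in 2 domains. The second of them, of the lysosomal lipase gene LIPA and the antiviral gene IFIT2 (chr10:89248001-89308000), was covered over 98.3%, 96.7% and 98.3% with DMSO, 31.7%, 18.3% and 38.3% with A-196, 75%, 75%, 70% and 75% with siNC and 25%, 38.3%, 50% and 28.3% with siSUV420H1, lower in both arms. The only members of teneurins (1 of 3), UGT genes (1 of 21) and receptor tyrosine phosphatases (1 of 20) were those of single domains, over TENM2, a synaptic adhesion gene (98.5%, 14.1%, 96.6% and 57.2%), UGT2B15, which conjugates steroids (92.0%, 26.8%, 73.0% and 33.9%), and the phosphatase gene PTPRQ (90.3%, 39.8%, 70.2% and 14.9%), each lower in both arms. Ion channel genes with SCN, KCN or CACN symbols had 2 of 128 members, KCNU1 and the inward rectifier gene KCNJ15, in 3 domains that were lower in both arms, at 97.2%, 21.1%, 63.8% and 28.9%. Olfactory receptors had 6 of 391 members in 2 domains, both higher with A-196, beside 3.57% of all domains and 0.774% of all regions. Those 2 were nearly without peaks in DMSO cells already, at 2.02%, 21.2%, 84.9% and 81.2%. Clustered protocadherins, neuronal adhesion genes, had 3 of 53 members in 2 domains that were lower in neither arm, at 74.4%, 81.6%, 87.2% and 97.1%. Cadherins and non-clustered protocadherins (0 of 33), contactins (0 of 13), glutamate receptors (0 of 25), GABA-A receptors (0 of 16) and the H4K20 methylation and heterochromatin machinery (0 of 21) had no member in a domain.

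Of the 20 squamous epithelial genes listed, only 2 overlapped a domain, TP63 and EGFR, with 4 domains between them. TP63, the transcription factor that specifies squamous epithelium, overlapped 3. That at chr3:189543001-189617000 averaged 99.1%, 36.5%, 69.3% and 12.2% with DMSO, A-196, siNC and siSUV420H1, and that at chr3:189697001-189805000 97.5%, 29.9%, 63.0% and 29.4%. The third, at chr3:189888001-189968000 and shared with the collagen-modifying gene P3H2, kept more, at 98.3%, 85.8%, 84.1% and 76.2%. All 3 were lower in both arms. The growth factor receptor gene EGFR touched a domain at chr7:54758001-55021000, with 99.6%, 92.0%, 87.5% and 66.6%, lower with siSUV420H1 and overlapping with A-196. NRG1, a ligand of the related ERBB receptors that is not on that list, held a domain (chr8:32221001-32360000) at 98.8%, 35.5%, 88.5% and 52.3%.

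Of the promoters with a RefSeq sequence, 15101 of 19126 autosomal coding genes and 21156 annotated starts in all, 321 starts of 250 genes fell in a domain. Peaks covered 290 ± 7.77 of these starts with DMSO, 172 ± 27 with A-196 (SD, n = 3), 209 ± 3.59 with siNC and 188 ± 3.59 with siSUV420H1 (SD, n = 4). The 108 starts of zinc finger genes were covered in 95 ± 3.61, 93 ± 6.56, 82.2 ± 3.77 and 100 ± 2 cases, so that DMSO and A-196 overlapped and siSUV420H1 lay above siNC. The 213 starts of other genes were covered in 187 to 204 cases with DMSO, 58 to 99 with A-196, 125 to 128 with siNC and 84 to 91 with siSUV420H1, without overlap in either arm. The ratio of CG sites found to those expected from the C and G content had a median of 0.781 in the 108 zinc finger promoters, 0.319 in the 213 others and 0.743 in all 21156. It exceeded 0.6 in 75%, 33.3% and 62.6%. At least 1 CG was found in 98.0% of all promoters and in 94.4% of the 321. The part of base composition in the coverage was not tested.

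By chromosome, the share of domains lower with A-196 ran from 45 of 46 on chromosome 1 and 41 of 42 on chromosome 3 to 2 of 36 on chromosome 19 and 0 of 7 on chromosome 22. Median coverage on chromosome 19 was 94.4%, 84.6%, 76.9% and 90.3% with DMSO, A-196, siNC and siSUV420H1, and on chromosome 22 84.9%, 83.4%, 98.6% and 98.8%. Only 14 domains lay within 2 Mb of a chromosome's end. They averaged 97.7%, 93.6%, 82.2% and 81.5%, with 6 lower with A-196 and 5 lower and 6 higher with siSUV420H1.

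The domains fell in groups by the controls that held a wide peak. The 261 with a wide peak in DMSO alone stood at 96.2%, 37.2%, 61.7% and 31.9% with DMSO, A-196, siNC and siSUV420H1. The 106 with one in siNC alone stood at 46.3%, 21.8%, 93.4% and 82.3%, and the 222 with one in both at 96.4%, 48.8%, 86.0% and 56.0%. A wide peak was present in all 7 controls in 143 domains and in 1 alone in 103. At the threshold, the 48 domains whose widest control peak measured 50 to 52 kb had medians of 93.5%, 28.8%, 78.8% and 53.8%, and the 70 regions just outside, with a widest peak of 47 to 49 kb, had 86.6%, 27.8%, 78.3% and 49.9%.

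The share of all regions with opposite directions in the arms was not computed, so the count of such domains is a description. In 3 domains the arms went in opposite directions without overlap in either. That of the zinc finger gene ZNF354A with MSANTD5 (chr5:178668001-178731000) was covered over 92.1%, 90.5% and 100% with DMSO, 41.3%, 30.2% and 77.8% with A-196, 84.1%, 85.7%, 85.7% and 84.1% with siNC and 96.8%, 87.3%, 92.1% and 96.8% with siSUV420H1. A domain of RAD51B, a gene of homologous recombination repair (chr14:68118001-68174000), was covered over 100%, 83.9% and 89.3% with DMSO, 12.5%, 14.3% and 28.6% with A-196, 62.5%, 57.1%, 55.4% and 57.1% with siNC and 71.4%, 69.6%, 67.9% and 64.3% with siSUV420H1. SUGCT, a mitochondrial metabolic gene, held the other (chr7:40867001-40954000), where coverage fell by 36.0 percentage points with A-196 and was 9.20 percentage points higher with siSUV420H1. The difference between the arms had an exact permutation p of 0.00143 in each of the 3 and an adjusted p of 0.192 over all regions, and so did not pass.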

How the data were processed

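H4K20me3 CUT&RUN libraries of HN-SCC-151 cells were used, 14 of the 24 samples in the labels, grouped by their titles. The broad peaks deposited by the authors give a start and an end in base pairs (bp) and no other value. The authors' build was hg38 and their tools included bedtools 2.30.0, Picard 2.27.3, Bowtie and cutadapt 4.4, per the submitters' processing notes. Duplicates were removed and each library was called against 1 IgG library, per the labels of the lists. Which peak caller was used is not given in the sources used here. Their ends all lie on a grid of 1000 bp, the narrowest peak is 5 kb and the smallest gap 2 kb, so smaller gaps are not visible, and depth or enrichment that differs between libraries can change what is called.

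Computed here were the percent of each domain covered, the number of separate peaks in it and the longest peak (Python 3.11.15, numpy 2.4.6, pandas 2.3.3, scipy 1.17.1, figures with matplotlib 3.10.9). Regions were compared by exact two-sided permutation of libraries, 20 assignments in the inhibitor arm, 70 in the siRNA arm and 1400 within both, with Benjamini-Hochberg adjustment over all 17836 regions and a threshold of 0.05. The code was tested on simulated data. Coordinates are 1-based, and gene spans and promoters came from RefSeq tables of GRCh38.p14. Exons, introns, repeats and the sequence of whole domains were not analysed here. Zinc finger genes and the other lists were matched by symbol.

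The members and lists were chosen with earlier results of these data known. Named were the 10 widest domains, per arm the 6 largest falls, the 6 widest without a treated peak, up to 4 largest rises, the 6 domains of at least 100 kb with the smallest fall, and the domains of interferon-induced genes. No domain passed the test between the arms, so none was named by it. A domain that met this rule is not reported here. Further domains were picked with their values already seen. The SD is over libraries of the value named. Alternatives covered the width threshold, the libraries that chose the domains, joined or wider peaks, domain ends, chromosomes, group medians, scaling by covered length, the replicate block and single libraries left out.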

Additional observations from a re-analysis of the deposited data

Results flagged for a closer look

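An outlying library was looked for in 104 groups of 4 libraries, so only siNC and siSUV420H1 libraries could be found this way, and 19 were found. Chance alone marks about 1 in 20 groups where values are continuous. Peak ends lie on a grid of 1000 bp, so the other libraries of a group can tie, and any differing value is then flagged. The number found can therefore not be set against that rate. Over all domains, siNC replicate 4 had a median longest piece of 43 kb, apart from the other siNC libraries, and siSUV420H1 replicate 2 had 2.33 pieces per domain, apart from the others of its group.

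In single domains, siNC replicate 3 stood apart at the domain of POU5F1B and MYC with 82.7% covered, at that of KRT23 with 63.8%, at that of ZNF814 with 35.3% and at that of LIPA and IFIT2 with 70%. Replicate 4 of siNC stood apart at the F5 domain with 37.3%, and at gene-free domains at chr5:105381001-105499000 with 89.8%, chr10:90540001-90613000 with 65.8% and chr6:53575001-53645000 with 82.9%. Replicate 1 of siNC did so at the CAST domain with 96.5% and at that of ASZ1 with 47.2%, and replicate 2 at chr8:36972001-37099000 with 14.96%.

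Among siSUV420H1 libraries, replicate 1 stood apart at the domain of ZNF716 and ZNF479 with 99.8%, at that of ZNF680 with 94.5% and at chr6:134408001-134465000 with 10.5%. Replicate 3 stood apart at the domain of CXCL9, CXCL10 and CXCL11, where its single peak covered 12.3%. Replicate 4 did so at the KCNU1 domain with 20.7% and at chr21:9525001-9828000 with 99.3%.

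In 3 domains every library moved one way in one arm and the opposite way in the other. The share of all regions was not computed for this count, which is a description. Coverage with A-196 differed from DMSO by -44.4 percentage points at ZNF354A and MSANTD5, by -36.0 at SUGCT and by -72.6 at RAD51B. With siSUV420H1 it differed from siNC by 8.33 percentage points at ZNF354A and MSANTD5, by 9.20 at SUGCT and by 10.3 at RAD51B. The difference between the arms did not pass adjustment in any of the 3 (exact permutation p = 0.00143, adjusted p = 0.192 over all regions).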

How the results depend on the processing

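Of 278 comparisons of a main result with an alternative, 255 stayed within the limits for an unchanged result and 23 moved. With scaling by relative covered length the A-196 change went from -54.4 to -29.9 percentage points and the siSUV420H1 change from -29.2 to -2.10, the share lower to 51.1% and 34.0%, siNC-chosen domains lower with A-196 to 33.2%, DMSO-chosen domains lower with siSUV420H1 to 35.4%, domains lower over both arms to 36.2% and domains that differ between the arms from 0% to 8.66%. It also made 17.3% higher with A-196, 39.0% higher with siSUV420H1 and 98.0% of zinc finger domains higher, on a scale not bounded at 100%. It reversed A-196 changes at chr3:177257001 (to 19.4), MYC (4.45), KLF12 (11.1) and AHR (20.7), and siSUV420H1 changes at chr3:177257001 (2.84), chr6:113232001 (1.003), AHR (12.4) and CAST (15.3). Peaks of at least 10 kb gave changes of -65.6 and -32.6, and more pieces in 9.17% with A-196 and 6.45% with siSUV420H1. The siSUV420H1 change was -30.6 for a width of 40 kb, -20.6 with a wide peak in every control of the arm, -34.4 on bases covered in at least 4 of 7 controls, -30.3 without chromosomes 13, 14, 15, 21 and 22 and -31.1 without chromosome 14. Where a wide peak was asked of every control of the arm, the domains were built from that arm's controls only. More pieces with A-196 were found in 38.8% at 75 kb, 48.6% at 100 kb and 42.1% with a wide peak in every control of the arm, and with siSUV420H1 in 37.7% under the last. Group medians left 0% lower over both arms. Same-numbered libraries did not deviate together (correlations from -0.0966 to 0.0356), so the numbers do not pair them. With the replicate block, 469 domains (79.6%) were lower with A-196 and 433 (73.5%) with siSUV420H1, 79.0% of DMSO-chosen and 68.7% of siNC-chosen domains were lower, pieces were more in 32.3% and 13.4%, and 0 passed over both arms (443 at an unadjusted exact permutation p under 0.05, smallest adjusted p 0.0923). Leaving out single libraries gave changes from -60.9 to -49.5 and from -29.7 to -28.8, shares lower from 78.0% to 82.9% and from 70.8% to 73.0%, from 72.2% to 75.4% over both arms, from 67.0% to 73.4% of siNC-chosen and from 76.5% to 78.0% of DMSO-chosen domains, and more pieces from 25.6% to 35.5% and from 11.4% to 13.3%. Domains higher with A-196 ranged from 0% with a wide peak in every control of the arm to 17.3% with scaling, with 1.02% for peaks of at least 10 kb, 1.27% without chromosomes 13, 14, 15, 21 and 22, 5.82% with the other arm's controls and 7.81% without A-196 replicate 2, and domains without an A-196 peak from 0% to 12.6%. Zinc finger domains higher with siSUV420H1 were 78.6% at 100 kb, 22.2% with a wide peak in every control of the arm and 19.6% on bases covered in at least 4 of 7 controls. For 44 named domains, 1085 of 1144 values stayed, 26 gained and 25 lost their call and 8 reversed. Joint tests with the other arm's controls, medians for non-overlap counts and scaling for pieces do not exist as alternatives and were not run. Depth being unknown, what it limits could not be measured.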
